A study of Mus musculus with 6 samples.

Results

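Fibroblast growth factor (FGF) signalling was examined through 10 genes in RNA from sorted mouse skeletal stem cells of the Achilles tendon-to-bone interface. They comprised 6 ligand genes (Fgf1, Fgf2, Fgf7, Fgf9, Fgf10 and Fgf18) and 4 receptor genes (Fgfr1, Fgfr2, Fgfr3 and Fgfrl1). They were taken by gene symbol from a table of 26130 genes, and each of them had a row. The libraries came from C57BL/6 mice at day 7 and form 3 groups: Injured, with a partial injury of the interface (n = 3), sham control (n = 2) and Uninjured (n = 1). No transgene or agent is named for any group. The description of the uninjured library calls it a sham, against its title and treatment, so injured libraries were compared first with the 2 sham libraries and then with all 3 non-injured ones. These comparisons share control libraries. Ages, the surface markers of the sort, and whether a library is 1 animal or a pool are not named in the labels. The p-values therefore reflect the variation among these libraries alone, part of which may be technical.

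Most FGFs are secreted proteins that bind receptor tyrosine kinases together with heparan sulfate. The bound receptors signal through adaptor proteins and the Ras-MAPK cascade. In the skeleton, Fgf9 and Fgf18 act on cartilage and bone precursors, Fgf7 and Fgf10 act mainly on the epithelial splice form of Fgfr2, and Fgf1 binds all the main receptor forms. Fgfr3 is best known as a brake on growth plate chondrocyte proliferation, and Fgfrl1 binds FGFs but lacks the tyrosine kinase domain. Sprouty proteins, dual-specificity phosphatases and Etv transcription factors are induced by the pathway, and the first 2 groups feed back on it.

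Total counts lay between 37506188 and 51089267 per library. Sham 1 and injured 1 stood apart: ribosomal RNA took 15.1% and 14.8% of their counts against 2.89% to 5.33% elsewhere. They also held the most neutrophil marker RNA, with a summed 8040.3 and 5395 CPM over 6 genes, against 4.07 to 719.6 CPM elsewhere. CPM relate counts to a library size scaled by the trimmed mean of M-values (TMM). Of the skeletal stem cell surface genes, Itgav lay between 31.1 and 116 CPM and Cd200 between 31.0 and 160.2 CPM. The pan-leukocyte gene Ptprc was at 0 in sham 2 and injured 3 and reached 24.8 CPM in injured 1, and 6 of 8 endothelial markers were at 0 in sham 2 alone. Values with and without sham 1 and injured 1 are given with the results below.

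The clearest pattern among the 10 genes was at the ligands Fgf9 and Fgf1, which stood far lower in all 3 injured libraries than in every non-injured one. Of the receptors, Fgfr3 and Fgfrl1 had higher group means in injured cells but overlapped with sham 2. Fgfr1 had a lower mean, and its injured libraries lay between sham 1 and the other controls. Upstream sequences are shown first for 3 of these genes, the ligand with the largest difference and the receptors whose means were highest relative to sham. Each window covers 250 bases before to 50 after a start of transcription, from RefSeq on GRCm38.p6. Capitals mark the GC box, the letters GGGCGG on either strand. Windows were read by symbol for 8 of the 10 genes. Fgfr1 had no window and Fgf1 was left out of this step, so both are named only. Fgfr3 had more than 1 window, and the one farthest upstream is shown.
Fgf9, chr14:58072436-58072735, plus strand: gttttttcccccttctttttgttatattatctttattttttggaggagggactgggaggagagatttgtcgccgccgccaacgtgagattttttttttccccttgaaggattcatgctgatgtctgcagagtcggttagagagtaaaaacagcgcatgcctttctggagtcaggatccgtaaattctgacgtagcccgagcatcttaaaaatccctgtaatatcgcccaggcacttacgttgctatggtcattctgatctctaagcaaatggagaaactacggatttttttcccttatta
Fgfr3, chr5:33721474-33721773, plus strand: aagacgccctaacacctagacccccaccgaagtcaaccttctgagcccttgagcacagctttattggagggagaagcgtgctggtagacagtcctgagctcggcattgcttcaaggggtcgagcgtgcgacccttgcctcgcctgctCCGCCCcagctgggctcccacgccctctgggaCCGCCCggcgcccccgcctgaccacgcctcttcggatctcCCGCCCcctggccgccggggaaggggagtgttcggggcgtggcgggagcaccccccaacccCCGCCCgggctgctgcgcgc
Fgfrl1, chr5:108693979-108694278, plus strand: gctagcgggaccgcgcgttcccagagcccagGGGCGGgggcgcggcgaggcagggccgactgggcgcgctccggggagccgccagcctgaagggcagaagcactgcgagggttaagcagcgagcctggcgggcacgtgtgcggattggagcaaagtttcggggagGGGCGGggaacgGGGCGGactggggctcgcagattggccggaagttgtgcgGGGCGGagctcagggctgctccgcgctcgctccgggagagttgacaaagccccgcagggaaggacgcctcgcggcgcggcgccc

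The windows differ in base composition. Fgf9 had 42.7% G and C, 12 CpG dinucleotides and no GC box, whereas Fgfr3 had 69.7% with 26 CpG and Fgfrl1 73.7% with 37 CpG, and each of these had 4 GC boxes. Over 32851 windows of the same length the median was 52.7% G and C with 7 CpG, 35.7% held at least 1 GC box and 10.7% held 3 or more. None of the 3 windows held TATAAA (13.6% of all windows) or the AP-1 letters TGANTCA (7.81%), on either strand. The letters CCAAT, found in 37.4% of windows, occurred 1 time in the Fgfr3 window shown and 2 times for Fgfrl1. A further Fgfr3 window, not shown, had 73% G and C, 30 CpG, 2 GC boxes and 0 matches of CCAAT. A match here describes letters and is not a binding site.

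Fgf9, a ligand of chondrocyte and mesenchymal receptors, was nearly absent from injured libraries. It had 370 and 241 counts in sham 1 and 2 and 1508 in the uninjured library, against 1, 1 and 5 counts in injured 1, 2 and 3. Its normalised level was therefore 10.001 and 6.66 CPM in sham 1 and 2, 36.7 CPM in the uninjured library, and 0.0226, 0.0165 and 0.107 CPM in injured 1, 2 and 3. Every injured library lay below every non-injured one, and the uninjured library exceeded both sham libraries. The 7 counts summed over the injured libraries have an exact Poisson 95% interval of 2.81 to 14.4, which covers counting error only. The log2 fold change was -7.35 ± 1.28 (SE) against sham, with edgeR's unadjusted p = 0.000748 and adjusted p = 0.696, and -8.45 ± 1.43 (SE) against all non-injured libraries, with unadjusted p = 0.000508 and adjusted p = 0.295. By unadjusted p it was number 18 of 16752 genes in the first comparison and number 23 of 14110 in the second. The quasi-likelihood test thus did not call Fgf9, whereas DESeq2 did, at adjusted p = 1.26e-08 and 2.28e-10. In bulk RNA, fewer cells of an expressing type and less RNA per cell cannot be told apart.

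Fgf1, which unlike most FGFs lacks a signal peptide, showed the same separation at a higher level. It stood at 56.3 and 82.1 CPM in sham 1 and 2 and at 76.3 CPM in the uninjured library. In injured 1, 2 and 3 it stood at 0.0905, 6.13 and 4.00 CPM. The non-injured libraries lay close together, the injured ones were all lower, and injured 1 held only 4 counts. The group means were 3.41 ± 3.06 CPM in injured (SD, n = 3), 69.2 ± 18.2 in sham (SD, n = 2) and 71.6 ± 13.5 in all non-injured libraries (SD, n = 3). The log2 fold change was -4.34 ± 1.30 (SE; edgeR unadjusted p = 0.0129, adjusted p = 0.865) against sham and -4.39 ± 1.21 (SE; unadjusted p = 0.00786, adjusted p = 0.452) against all non-injured. DESeq2 called Fgf1 as well, at adjusted p = 0.0199 and 0.00202.

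**Figure D1:**
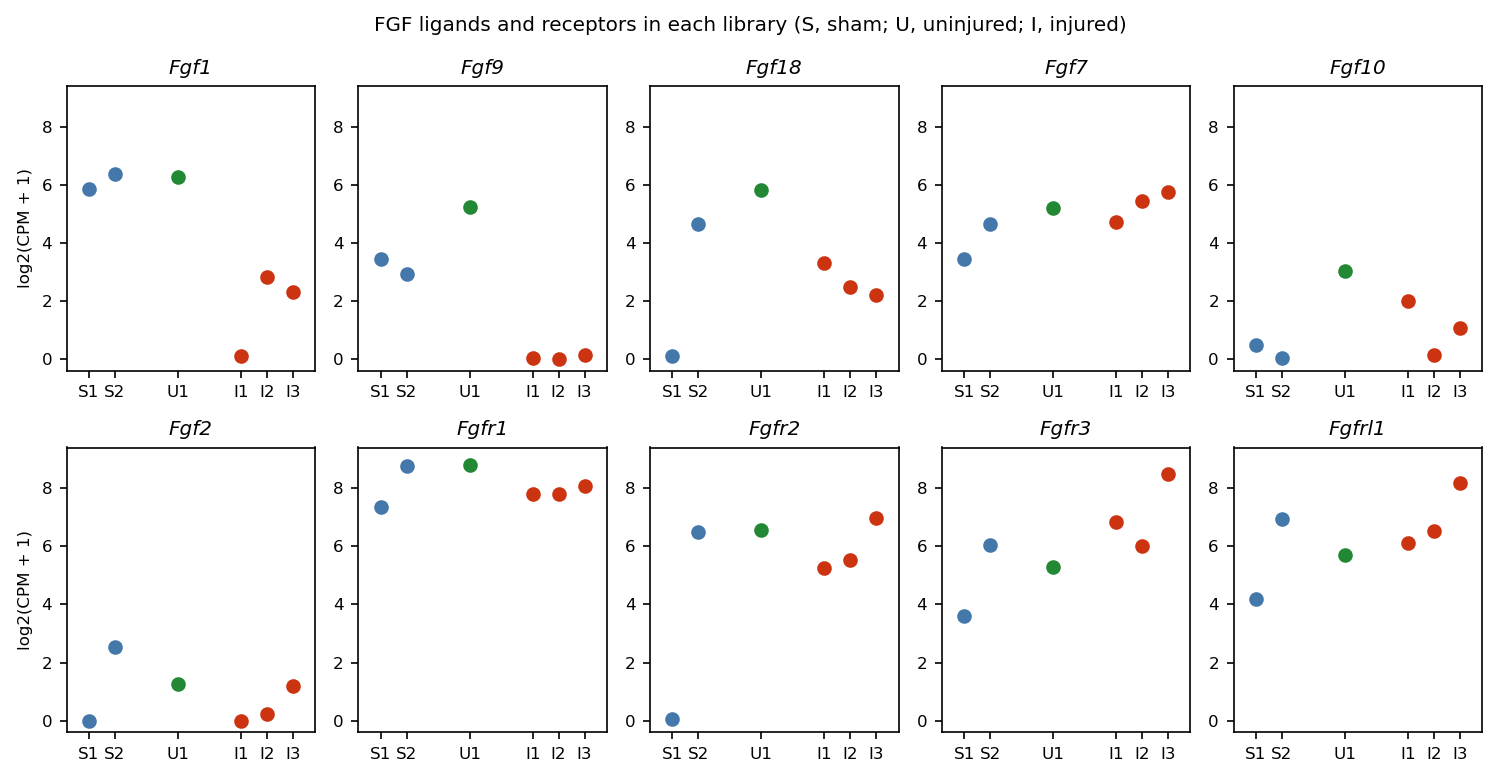
Level of each of the 10 genes as log2(CPM + 1) on the y axis in every library on the x axis, with sham (S1, S2), uninjured (U1) and injured (I1 to I3) libraries as single points. For Fgf9 and Fgf1 the 3 injured points lie below the 3 others, Fgfr2 and Fgf18 are near 0 in S1 alone among the non-injured libraries, and Fgfr3 and Fgfrl1 are highest in I3.

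Of the 15 marker lists, none had summed levels that separated all injured from all non-injured libraries. A sum follows the most abundant genes of its list, and single genes of some lists did separate. Of 7 tendon markers, 1 (Scx) was higher in all injured than in all non-injured libraries and 0 were lower. The Schwann cell markers summed to 3469 and 297 CPM in sham 1 and 2, 154 CPM in the uninjured library and 234, 45.8 and 73.4 CPM in injured 1, 2 and 3. Their sums did not overlap between sham and injured and did overlap once the uninjured library was counted. Of the 7 Schwann markers, 3 were lower in all injured than in both sham libraries, and 1 than in all non-injured ones. Over all genes tested, 9.12% were lower without overlap against sham and 7.07% against all non-injured libraries. The shares that were higher without overlap were 11.9% and 9.23%. The smooth muscle gene Myh11, picked after its values were seen, was lower in all injured libraries (7.54, 6.51 and 31.1 CPM in injured 1, 2 and 3 against 199, 40.7 and 299 CPM in sham 1, sham 2 and the uninjured library), the only one of its 6 list members to separate. The osteoblast markers summed to 3387 and 23263 CPM in sham 1 and 2, 11463 CPM in the uninjured library and 1384, 5369 and 6897 CPM in the injured ones, with Phex at 0 in all but injured 3, and none of the 8 genes separated the groups. The 4 epithelial markers summed to 4.57 and 5.11 CPM in the sham libraries and at most 1.43 CPM in the others, with Krt5 and Epcam at 0 in sham 1, the uninjured library and injured 1 and 2. The part of Schwann, smooth muscle, osteoblast and epithelial RNA in the difference of Fgf9 and Fgf1 was not tested. Without sham 1 and injured 1 the log2 fold changes of Fgf9 and Fgf1 against sham were -6.76 and -4.02.

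Fgf18, a ligand required for normal cartilage and bone growth, differed widely between control libraries. It stood at 0.0811 CPM in sham 1, 24.0 CPM in sham 2 and 56.0 CPM in the uninjured library, against 9.01, 4.59 and 3.64 CPM in injured 1, 2 and 3. Sham 1, with 3 counts, was the lowest of all, and the remaining non-injured libraries were the highest, so the injured libraries lay between. The log2 fold change against sham was -1.07 ± 1.57 (SE; edgeR unadjusted p = 0.519). Leaving out a single sham library moved it to -2.06 (without sham 1, unadjusted p = 0.029) or to 6.10 (without sham 2, unadjusted p = 0.00425). No direction can therefore be given for Fgf18 against sham. Against all non-injured libraries it was -2.22 ± 1.55 (SE; edgeR unadjusted p = 0.193).

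Fgf7, a fibroblast product also called keratinocyte growth factor, was the one ligand whose level in every injured library exceeded that in both sham libraries. It stood at 9.97 and 23.9 CPM in sham 1 and 2, 35.9 CPM in the uninjured library and 25.3, 42.8 and 52.9 CPM in injured 1, 2 and 3. All injured libraries exceeded both sham libraries, injured 1 by a small margin over sham 2, and the uninjured library lay among the injured ones. The estimated log2 fold change was 1.25 ± 0.61 (SE; edgeR unadjusted p = 0.0785) against sham and 0.79 ± 0.55 (SE; unadjusted p = 0.196) against all non-injured libraries. Its close relative Fgf10 was scarce, with 0.405 and 0.0276 CPM in sham 1 and 2, 7.13 CPM in the uninjured library and 2.99, 0.0991 and 1.11 CPM in injured 1, 2 and 3. The difference of Fgf10 changed sign with the uninjured library, from a log2 fold change of 2.68 ± 2.34 against sham to -0.86 ± 2.03 (SE) with that library joined to the controls.

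Fgf2, or basic FGF, was scarce and varied between libraries. It had no count in sham 1 and injured 1, and stood at 4.75 CPM in sham 2, 1.39 CPM in the uninjured library, and 0.182 and 1.28 CPM in injured 2 and 3. The groups overlapped, with edgeR unadjusted p = 0.474 against sham and 0.427 against all non-injured. The 3' part of Fgf2 shares 640 exonic bases with Nudt6 on the opposite strand, and since the labels name no strand setting, reads from them cannot be told apart. Nudt6 itself lay between 2.74 and 11.8 CPM. Fgf2 also shares 255 bases with Gm43439 on the same strand, and Fgf10 shares 69 with Gm16263 on the opposite one. Of the receptors, Fgfr2 shares 314 exonic bases with Ctbp2 on the same strand, while on the opposite strand Fgfr1 shares 164 with Gm16159 and Fgfr3 shares 437 with G630022F23Rik.

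Fgfr1, the receptor of most mesenchymal cells, was the steadiest of the 10 genes within the injured group. It stood at 163.6 and 429 CPM in sham 1 and 2, 449 CPM in the uninjured library and 219.7, 224 and 269 CPM in injured 1, 2 and 3. The injured libraries lay between sham 1 and the other non-injured libraries. Its log2 fold change was -0.32 ± 0.48 (SE; edgeR unadjusted p = 0.529) against sham and -0.55 ± 0.43 (SE; unadjusted p = 0.235) against all non-injured. Its sign against sham turned without sham 2, to 0.54, and without sham 1 the estimate was -0.85. Against all non-injured libraries the log2 fold change was -0.89 without sham 1 (edgeR unadjusted p = 0.0278, background 3.95% lower). Without sham 1 and injured 1 it was -0.83 (edgeR unadjusted p = 0.0466, background 4.42% lower).

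Fgfr3, the chondrocyte receptor, had the highest fold change of the receptors. It stood at 11.1 and 65.5 CPM in sham 1 and 2, 38.0 CPM in the uninjured library and 114, 63.6 and 356 CPM in injured 1, 2 and 3. Injured 2 fell just under sham 2, and the other injured libraries exceeded every control. The log2 fold change was 2.22 ± 1.01 (SE; edgeR unadjusted p = 0.0650, adjusted p = 0.865) against sham and 2.21 ± 0.83 (SE; unadjusted p = 0.0307, adjusted p = 0.589) against all non-injured libraries. DESeq2 did not call it (adjusted p = 0.345 and 0.132). Without injured 3, its highest library, the log2 fold change was 1.21 against sham and 1.19 against all non-injured.

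Fgfrl1, the receptor without a kinase, was highest in the same library as Fgfr3. It stood at 17.1 and 120.8 CPM in sham 1 and 2, 51.3 CPM in the uninjured library and 68.3, 92.2 and 287 CPM in injured 1, 2 and 3. Only injured 3 exceeded sham 2. Its log2 fold change was 1.11 ± 0.95 (SE; edgeR unadjusted p = 0.280) against sham and 1.24 ± 0.80 (SE; unadjusted p = 0.165) against all non-injured. The estimate against sham was 0.22 without injured 3, 0.30 without sham 1 and 3.13 without sham 2, and against all non-injured it was 0.33 without injured 3, 0.79 without sham 1 and 2.12 without sham 2. Fgfr2 had only 2 counts in sham 1 (0.0541 CPM), against 89.6 CPM in sham 2, 93.7 CPM in the uninjured library and 37.4, 44.9 and 124 CPM in injured 1, 2 and 3. The groups overlapped, and the log2 fold change of 0.62 ± 1.80 (SE; edgeR unadjusted p = 0.741) against sham turned to -0.38 without sham 1.

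**Figure D2:**
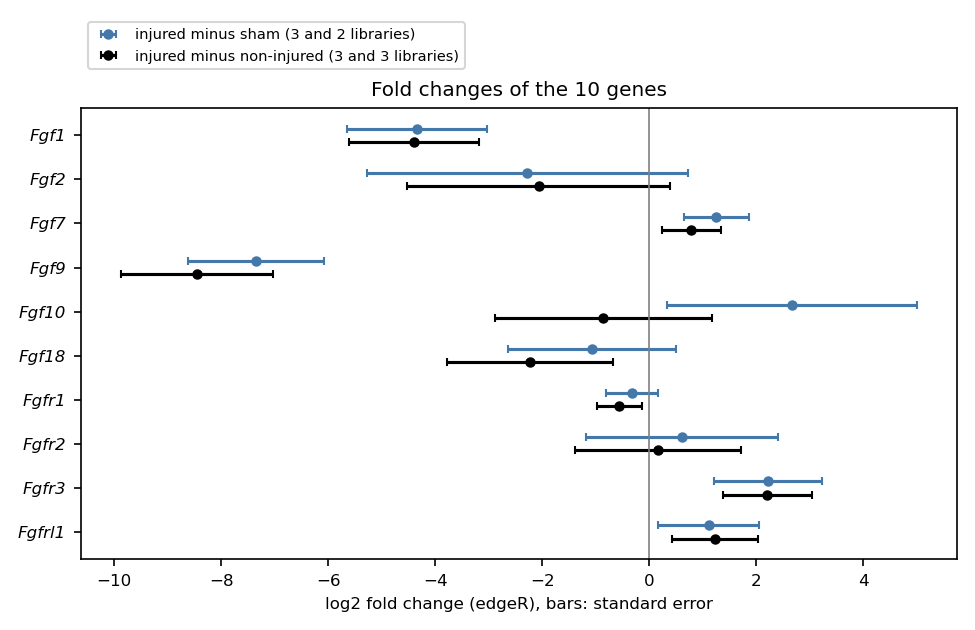
The x axis gives the log2 fold change of each gene from edgeR, for injured minus sham (blue) and injured minus all non-injured libraries (black). Bars give standard errors derived from the F statistic, and the y axis lists the 10 genes. Fgf9 and Fgf1 lie farthest below 0 in both comparisons, Fgfr3 lies near 2.2 in both, and Fgf10 changes sign between them.

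Counted over the 10 genes, none passed edgeR's adjusted p of 0.05 in either comparison, where 0.0% of all genes did. At an unadjusted p under 0.05, 2 of 10 were lower in injured than in sham (Fgf9 and Fgf1; background 2.2%) and 0 were higher (background 2.44%). Against all non-injured libraries, the same 2 were lower (background 3.72%) and 1, Fgfr3, was higher (background 3.71%). DESeq2 called 2 of 10 as lower, Fgf9 and Fgf1, in each comparison, where the background was 0.77% against sham and 1.45% against all non-injured. The injured and sham libraries did not overlap for 2 genes that were lower (background 9.12%) and for 1 that was higher, Fgf7 (background 11.9%). Against all non-injured libraries the counts were 2 lower (background 7.07%) and 0 higher (background 9.23%). Fold changes above 0 were found for 5 of 10 genes against sham (background 53.7%) and for 4 of 10 against all non-injured (background 50.1%). Without sham 2, 7 of 10 genes had an unadjusted p under 0.05 against sham (Fgf1 and Fgf9 lower, and Fgf7, Fgf18, Fgfr2, Fgfr3 and Fgfrl1 higher), with sham 1 as the lone sham library. Over all genes tested in that setting the shares were 7.21% higher and 3.42% lower. Without sham 1, or without sham 1 and injured 1, the genes were Fgf1, Fgf9 and Fgf18, all lower, where 1.81% and 3.66% of all genes tested were lower. Against all non-injured libraries, Fgfr3 passed that threshold no longer without sham 1, the uninjured library or injured 3. The median log2 fold change of the 6 ligands was -1.67 against sham and -2.14 against all non-injured, and that of the 4 receptors 0.87 and 0.70, beside 0.09 and 0.00 over all genes tested.

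The other receptors were also set against Fgfr1 within each library, as the log2 ratio of CPM + 1, which hardly depends on the scaling between libraries. The ratio of Fgfr3 to Fgfr1 was -3.77 and -2.69 in sham 1 and 2 and -3.53 in the uninjured library, against -0.94, -1.80 and 0.40 in injured 1, 2 and 3. All injured libraries were above all non-injured ones, although Fgfr3 alone overlapped. Fgfr1 itself was lower in all injured libraries than in sham 2 and the uninjured library, and higher than in sham 1. The mean difference was 2.45 log2 units against sham (2-sided exact permutation p = 0.2, the smallest that 3 against 2 libraries can give) and 2.55 against all non-injured (exact permutation p = 0.1, the smallest for 3 against 3). The ratio of Fgfrl1 to Fgfr1 separated as well, at -3.19, -1.82 and -3.10 in sham 1, sham 2 and the uninjured library, against -1.67, -1.27 and 0.09 in injured 1, 2 and 3. Its mean difference was 1.55 log2 units against sham and 1.75 against all non-injured (exact permutation p = 0.2 and 0.1). The ratio of Fgfr2 to Fgfr1 overlapped (exact permutation p = 0.6 in each comparison). After Benjamini-Hochberg adjustment over these 6 exact tests the smallest p was 0.3, and the design cannot reach 0.05.

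**Figure D3:**
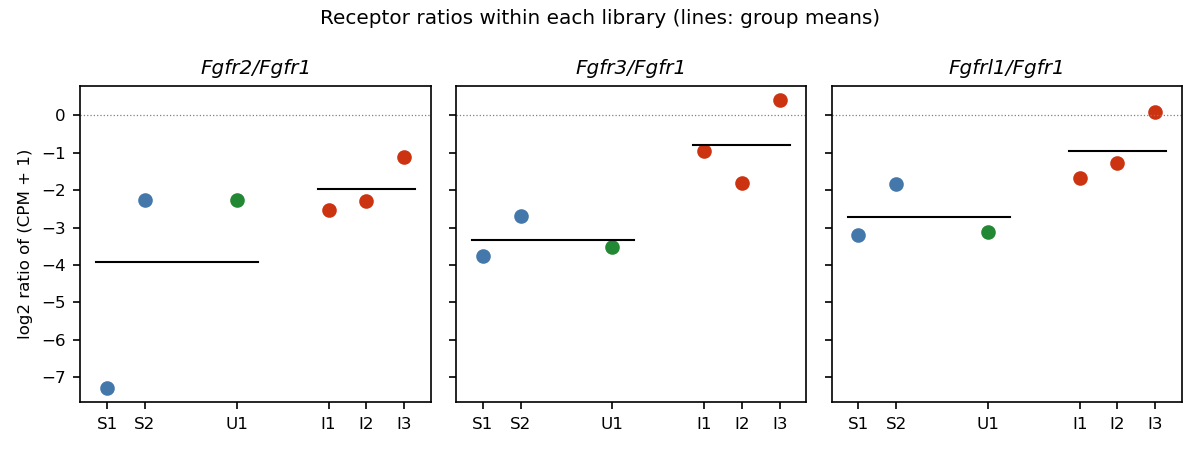
The y axis gives the log2 ratio of (CPM + 1) of Fgfr2, Fgfr3 and Fgfrl1 to Fgfr1 within each library on the x axis, and horizontal lines give the means of the 3 non-injured and the 3 injured libraries. For Fgfr3 and Fgfrl1 the injured points lie above all non-injured ones, and for Fgfr2 the sham 1 point lies at -7.29, far below the rest.

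Per kilobase of exon Fgfr1 was the highest receptor in all libraries but injured 3. Divided by the union of coding-transcript exons in GENCODE M21, the receptor levels in non-injured libraries were 66.6 ± 30.6 CPM per kb for Fgfr1, 24.3 ± 20.4 for Fgfrl1, 12.0 ± 10.4 for Fgfr2 and 8.68 ± 6.18 for Fgfr3 (SD, n = 3). In injured libraries they were 57.6 ± 46.4 for Fgfrl1, 45.5 ± 5.27 for Fgfr1, 40.5 ± 35.5 for Fgfr3 and 13.5 ± 9.43 for Fgfr2 (SD, n = 3), so that the first 3 did not differ beyond their spread. The mean of Fgfrl1 lay above that of Fgfr1 through injured 3 alone, with 110.9 against 51.6 CPM per kb, whereas injured 1 had 26.4 against 42.1 and injured 2 had 35.6 against 42.9. Among ligands, Fgf18 had the highest level in the uninjured library and sham 2 (47.2 and 20.2 CPM per kb) and Fgf1 in sham 1 (10.9). Fgf7 had the highest level in all 3 injured libraries, at 8.06, 13.6 and 16.8 CPM per kb, with Fgf18 close behind in injured 1 at 7.59. Isoforms were summed by gene in the table, so the splice forms of a receptor cannot be told apart.

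Several cartilage markers, though not most of the list, were higher in every injured library than in every non-injured one. Fgfr3 had a higher mean in injured libraries but overlapped. Of 13 chondrocyte markers, 4 were higher in all injured than in all non-injured libraries (Col9a1, Matn3, Cnmd and Ihh; background 9.23%), none was lower and 9 overlapped. Their summed level overlapped, at 6323 and 31519 CPM in sham 1 and 2, 8691 CPM in the uninjured library and 17458, 10787 and 57378 CPM in injured 1, 2 and 3. Col9a1, a cartilage collagen, stood at 5.08, 12.5 and 9.15 CPM in sham 1, sham 2 and the uninjured library and at 257, 76.0 and 1030.3 CPM in injured 1, 2 and 3, the same order of libraries within each group as Fgfr3. Ihh was at 0 in all non-injured libraries and at 85.8, 23.1 and 67.9 CPM in injured 1, 2 and 3, a different order, while Matn1 and Matn3 were at 0 in sham 1. Col2a1 and Acan, picked after their values were seen, overlapped but had higher means in injured libraries. Col2a1 stood at 1082, 17122 and 495 CPM in sham 1, sham 2 and the uninjured library. In injured 1, 2 and 3 it stood at 12395, 6068 and 40956 CPM. Acan stood at 207, 1171 and 361 CPM in those controls and 832, 620 and 2998 CPM in the injured ones. Sox9, the chondrogenic transcription factor, had a lower mean, with 149.9, 1095 and 588 CPM in those control libraries and 84.3, 140.1 and 423 CPM in the injured ones. Comp, a cartilage and tendon matrix protein gene picked after its values were seen, had a lower mean in injured libraries, with 4756, 11127 and 7067 CPM in the same controls and 2495, 2872 and 5441 CPM in injured 1, 2 and 3. Of 6 skeletal muscle markers, 4 were higher in all injured than in both sham libraries (background 11.9%), 3 than in all non-injured ones (background 9.23%), and none was lower. Their sums were 44.0 and 12.5 CPM in sham 1 and 2, 18.5 CPM in the uninjured library and 59.9, 74.9 and 30.2 CPM in injured 1, 2 and 3, with Ckm, Mb and Myh4 at 0 in both sham libraries. The part of chondrocyte and muscle RNA in the levels of Fgfr3, Fgfrl1 and Fgf7 was not tested.

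**Figure D4:**
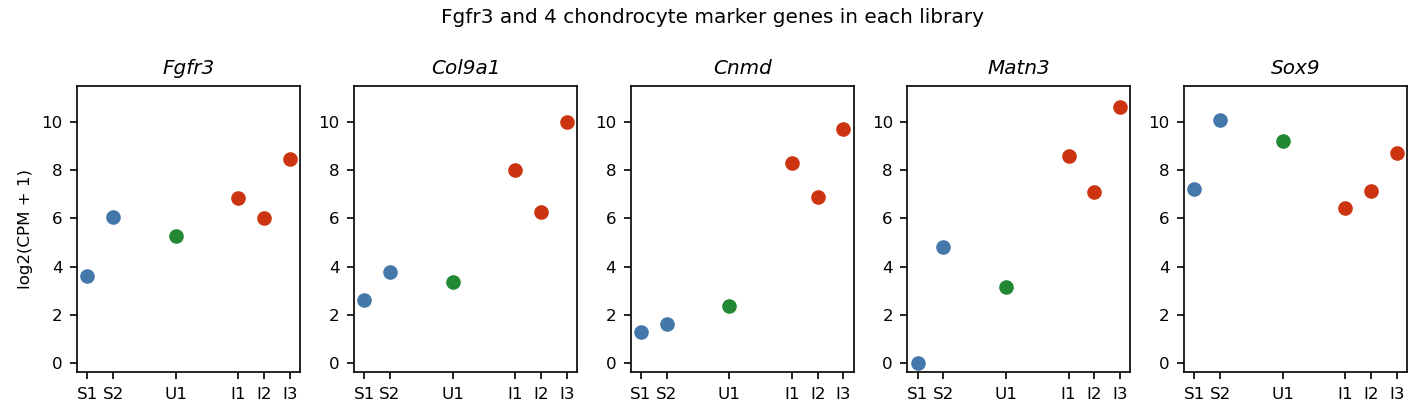
Level as log2(CPM + 1) on the y axis of Fgfr3 and of 4 chondrocyte markers, chosen after their values were seen, in each library on the x axis. Col9a1, Cnmd and Matn3 share with Fgfr3 the order injured 3, injured 1, injured 2, while Sox9 is highest in sham 2 at 1095 CPM.

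The difference was also read within the pair of libraries rich in ribosomal and blood cell RNA, and without them. Between sham 1 and injured 1, Fgf1 stood at 56.3 against 0.0905 CPM, Fgf9 at 10.001 against 0.0226, Fgfr3 at 11.1 against 114 and Fgfrl1 at 17.1 against 68.3 CPM. Among the remaining libraries, Fgf1 and Fgf9 were again lower in each of the 2 injured than in sham 2 and the uninjured one. Fgfr3 was not separated there, with 63.6 and 356 CPM in injured 2 and 3 against 65.5 and 38.0 CPM in sham 2 and the uninjured library. Without sham 1 and injured 1, its log2 fold change was 1.68 against sham and 2.02 against all non-injured, with edgeR unadjusted p of 0.135 and 0.0613.

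Other genes of the pathway were read from fixed lists. Of the 16 other Fgf genes, 5 had no count in any library, 8 could be tested against sham and none had an unadjusted p under 0.05. Among those tested, Fgf11, Fgf12, Fgf13 and Fgf14 encode intracellular proteins rather than secreted ligands. Of all 8, 1 had a fold above 0 (background 53.7%) and 7 below. Their levels were low, the highest being 4.69 CPM for Fgf16 in sham 2. The 4 with the smallest p were Fgf3, Fgf22, Fgf11 and Fgf16, of which Fgf3 had counts in sham 1 alone (0.622 CPM) and Fgf11 in injured 3 alone (0.471 CPM). Among 8 further receptors and cofactors, 6 were tested against sham, none had an unadjusted p under 0.05 and 1 fold lay above 0 (background 53.7%). Fgfr4, the remaining kinase receptor, stood at 4.26 CPM in injured 3 and at most 0.193 CPM elsewhere. The endocrine co-receptor gene Kl had no count, and Klb had counts in sham 2 alone (1.24 CPM). The median log2 fold changes of these 2 lists were -2.89 and -0.81, beside 0.09 over all genes, and stayed at those values when a group without counts was given a bound of 3 counts over all its libraries.

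The 19 adaptor and MAPK cascade genes were detected in most libraries. Against sham, 7 had a fold above 0 (background 53.7%) and 12 below. None had an unadjusted p under 0.05 by edgeR or an adjusted p under 0.05 by DESeq2. Their median log2 fold change was -0.04 beside 0.09 over all genes (-0.07 beside 0.00 against all non-injured). Single log2 fold changes against sham lay between -1.45 (Gab1) and 6.82 (Frs3). Gab1, a docking protein downstream of growth factor receptors, was lower in all injured libraries, at 1.38, 13.2 and 34.2 CPM against 40.0, 48.9 and 54.7 CPM in sham 1, sham 2 and the uninjured library (edgeR unadjusted p = 0.213 against sham). The phosphatase gene Ptpn11 stood at 47.8, 69.0 and 69.5 CPM in injured 1, 2 and 3 against 34.8 and 47.5 CPM in sham 1 and 2, with 78.5 CPM in the uninjured library. Map2k2, a MAPK kinase, had a log2 fold change of 0.53 ± 0.40 (SE; edgeR unadjusted p = 0.228). The adaptor Frs3 was scarce, with 0 and 0.0276 CPM in sham 1 and 2, 3.24 CPM in the uninjured library and 0, 3.80 and 1.80 CPM in injured 1, 2 and 3.

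Of the 15 target and feedback genes, 14 were tested and Spry3 had no count. Against sham 5 had a fold above 0 (background 53.7%) and 9 below, with a median log2 fold change of -0.26 beside 0.09 over all genes. Against all non-injured libraries 3 lay above 0 (background 50.1%) and 11 below, with a median of -0.64 beside 0.00. Spry1, an inhibitor of receptor tyrosine kinase signalling, stood at 38.6 and 73.9 CPM in sham 1 and 2, 90.7 CPM in the uninjured library and 6.88, 30.1 and 21.2 CPM in injured 1, 2 and 3. The injured libraries were all lower, and the log2 fold change was -1.54 ± 0.67 (SE; edgeR unadjusted p = 0.0549) against sham and -1.81 ± 0.61 (SE; unadjusted p = 0.0202, adjusted p = 0.539) against all non-injured. Spry1 was the only gene of this list with an unadjusted p under 0.05, in the second comparison (background 3.72% lower). Spry2 was also lower in every injured library, at 0.272, 5.55 and 6.12 CPM against 8.14, 13.2 and 6.65 CPM in sham 1, sham 2 and the uninjured library, a narrow gap. Thus 2 of 14 genes were lower without overlap in each comparison (background 9.12% against sham and 7.07% against all non-injured). Spry4 and Dusp4 overlapped, with log2 fold changes of -0.93 ± 0.91 and 3.31 ± 2.71 (SE) against sham. Dusp6, the ERK phosphatase often used as a readout of FGF signalling, was not among the genes with the smallest p and was picked after its values were seen. It stood at 59.95, 48.5 and 48.8 CPM in sham 1, sham 2 and the uninjured library and 54.4, 28.6 and 47.1 CPM in injured 1, 2 and 3.

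**Figure D5:**
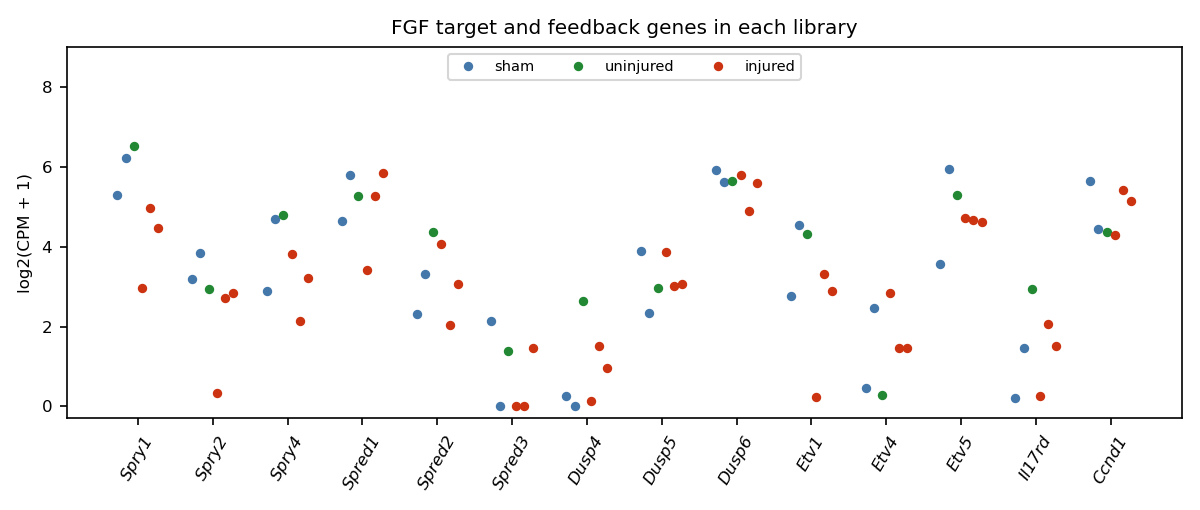
Level as log2(CPM + 1) on the y axis of the 14 tested FGF target and feedback genes on the x axis, 1 point per library in the order sham 1, sham 2, uninjured, injured 1, 2 and 3. The injured points of Spry1 and Spry2 lie below all others, and those of the other 12 genes overlap with them.

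Heparan sulfate is the FGF co-receptor. Of 13 genes that build, trim or carry it, 11 had a fold above 0 against sham (background 53.7%). The median log2 fold change of the list was 0.48 beside 0.09 over all genes (0.37 beside 0.00 against all non-injured, over 12 genes tested). By edgeR 1 gene, Hs3st1, had an unadjusted p under 0.05 against sham, and it was lower (background 2.2%). This 3-O-sulfotransferase stood at 72.7 and 30.5 CPM in sham 1 and 2, 85.1 CPM in the uninjured library and 3.26, 1.78 and 4.09 CPM in injured 1, 2 and 3. Its log2 fold change was -4.08 ± 0.62 (SE; edgeR unadjusted p = 0.00035, adjusted p = 0.525; DESeq2 adjusted p = 8.47e-07) against sham and -4.37 ± 0.60 (SE; adjusted p = 0.211) against all non-injured. The 2-O-sulfotransferase gene Hs2st1 was higher in all injured libraries, at 27.5, 42.6 and 61.3 CPM. It stood at 9.87, 25.5 and 8.69 CPM in sham 1, sham 2 and the uninjured library. Its edgeR unadjusted p was 0.0825 against sham and 0.0284 against all non-injured (background 3.71% higher). The epimerase gene Glce exceeded both sham libraries in each injured one but not the uninjured library, which stood at 39.9 CPM, and the polymerase gene Ext1 overlapped (67.5 ± 29.2 CPM in injured, n = 3, against 29.4 ± 27.0 in sham, n = 2; SD). Without overlap, 3 genes were higher against sham (Ext2, Glce and Hs2st1, background 11.9%). Against all non-injured libraries 2 were higher (Ext2 and Hs2st1, background 9.23%). Hs3st1 alone was lower without overlap in each comparison (background 9.12% and 7.07%). DESeq2 called 1 gene of this list as higher against sham (background 1.43%), Hs6st2, which had counts in injured 3 alone (2.57 CPM).

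Genes whose profile over the 6 libraries lay closest to each member were found by the root mean square difference of centred log2(CPM + 1) values. For Fgf9 the nearest was the actin-severing protein gene Gsn (0.292 log2 units). Gsn stood at 10562 and 8243 CPM in sham 1 and 2 and 25135 CPM in the uninjured library, against 1324, 895 and 1002 CPM in injured 1, 2 and 3. For Fgf1 it was the cartilage intermediate layer protein gene Cilp2 (0.411). For Fgfr3 the nearest were Serinc5 (0.398) and the sphingomyelinase gene Smpd3 (0.419), and for Fgfrl1 the adaptor gene Grb14 (0.295) and Gfpt1 (0.305). Fgf7 lay nearest to Taf13 (0.138) and Hnrnpa3 (0.149), Fgf18 to Galr2 (0.576) and Slc30a1 (0.585), and Fgfr2 to Kcnj15 (0.661) and Gramd3 (0.687). For Fgfr1 they were the small RNA gene Snord14c (0.0883) and Gm10023 (0.114), and for the scarce Fgf2 and Fgf10 the nearest were Rad51b (0.163) and Msmo1 (0.204), and B3galt1 (0.166) and Tns4 (0.189). A small value is easier to reach for a gene that varies little between libraries. The added 1 also shrinks the differences of genes with levels under 1 CPM. Fgf9 was at most 0.107 CPM in injured libraries, so its nearness to Gsn does not mean an equal fold change.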

How the data were processed

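RNA of sorted skeletal stem cells was made into cDNA from 150 pg of total RNA with a low-input kit, per the labels' protocols. The deposited table held whole-number counts per gene symbol for 6 libraries. The submitters' processing notes name Salmon 0.12.0, DESeq2 1.22.2 and DESeq, and the builds GRCm38.p6 and mm9, with no role for any of them. The step from transcript estimates to whole counts per gene is not described in the labels.

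Counts were tested with edgeR 4.0.16 (quasi-likelihood F test, TMM scaling, filterByExpr with a minimum count of 10, R 4.3.3), with p-values adjusted by Benjamini-Hochberg over all genes tested. Injured against sham was fitted on all libraries in 3 groups (3 residual degrees of freedom), and injured against all non-injured libraries with the uninjured library joined to sham (4 residual degrees of freedom). Alternatives were DESeq2 1.42.0, limma-voom (limma 3.58.1), other scalings, no filter, a replicate block and leaving out libraries. The edgeR procedure was tested on simulated data. Their spread was set in advance and not estimated from these libraries, so that test does not show the power reached here. From each pathway list up to 4 tested genes were named, by smallest p against sham, and the most alike genes were the 2 nearest per member. Some of these are not reported here. Members and lists were chosen with earlier results of these data known. Exact permutation tests were run on receptor ratios only. The SE of an edgeR log2 fold change was derived as its absolute value divided by the square root of the F statistic.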

Additional observations from a re-analysis of the deposited data

How the results depend on the processing

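Fgf9 and Fgf1 kept their negative sign and an unadjusted p under 0.05 in 13 of 13 alternatives against sham and 12 of 12 against all non-injured libraries. The log2 fold change of Fgf9 lay between -8.58 and -6.76 against sham and that of Fgf1 between -6.24 and -3.77. With DESeq2 they were -7.53 and -4.42 against sham and -8.59 and -4.46 against all non-injured. edgeR called 0 genes in each comparison, while 409 higher and 369 lower against sham, and 524 and 525 against all non-injured, had an unadjusted p under 0.05. Against sham, 3 genes were called with no filter, 369 with DESeq2 and 1 with limma-voom, and against all non-injured libraries 5, 345 and 7. With library size alone as the scale, the median over all genes tested against sham (log2) went from 0.09 to 0.23 and those counts to 538 and 287, and relative log expression gave 369 and 421. Against all non-injured libraries these scalings gave 648 and 430, and 468 and 579.

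The sign turned for Fgf18 against sham with limma-voom (1.81) and the replicate block (2.00), for Fgf10 against all non-injured libraries with limma-voom (0.36), and for Fgfr2 without sham 1 and injured 1 (-0.08 against sham and -0.12 against all non-injured). Without that pair of libraries Fgf18 stood at -2.54 against sham and Fgf10 at -2.57 against all non-injured. Leaving out 1 library at a time gave ranges of -4.64 to 7.50 for Fgf2, -2.06 to 6.10 for Fgf18, -0.85 to 0.54 for Fgfr1 and -0.38 to 10.25 for Fgfr2 against sham. Against all non-injured libraries the ranges were -2.06 to 2.63 for Fgf10 and -0.60 to 0.65 for Fgfr2. The cause was not tested. Where 1 sham library was left, it was assumed to vary like the other groups.

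Replicate numbers are shared by sham and injured libraries 1 and 2, but the labels name no shared origin. Deviations of these 2 pairs correlated with r = 0.24 across 16752 genes, which are not independent replicates. With the replicate block 0 genes were called, and 243 higher and 361 lower had an unadjusted p under 0.05, Fgf1 and Fgf9 among them. Input of 150 pg and 2 sham libraries limit precision, and Fgf2, Fgf10, and Fgf9 in injured libraries, rest on few counts.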
